A study of Mus musculus with 3 samples.

Results

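The keratinocyte library labelled ARPC4 ko was compared with the library labelled wt, gene by gene and by groups of related genes. They were chosen by the genotype in their labels and are 2 of the 3 libraries of the series. Keratinocytes make up most of the epidermis. All 3 cultures were of the C57BL/6 strain, immortalised with the method labelled SV40 and growing exponentially without a stated treatment. The title of the ARPC4 ko library holds the word Cre, the recombinase commonly used to delete a floxed gene. Which part of Arpc4 was deleted, and whether the cells were a clone or a pool, the sources used here do not state. The remaining library, labelled Nrf2-EGFP and with the word High in its title, is used below for its levels beside the other libraries, not as a comparison of its own. According to the series title, the study linked the missing Arp2/3 complex of the epidermis to a disease resembling psoriasis and to Nrf2, the transcription factor of antioxidant genes.

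The protein ARPC4 belongs to the Arp2/3 complex, which starts new actin filaments as branches on existing ones and so builds the sheet-like edge of a moving cell. Basal keratinocytes divide and make the keratins KRT5 and KRT14. Cells that leave this layer switch on suprabasal and cornified envelope genes, and injured or inflamed keratinocytes make chemokines, cytokines and the stress keratins KRT6, KRT16 and KRT17.

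Sequencing depth was similar, at 22924294 counts in genes for wt, 23033863 for ARPC4 ko and 25723959 for Nrf2-EGFP. Levels are scaled CPM, the count of a gene relative to the library's total, for 11777 genes with at least 1 CPM in wt or ARPC4 ko. With 1 library per genotype there is no measure of the spread between cultures, so nothing was tested. A gene is called higher or lower where the log2 ratio of CPM + 0.5 reached 1 or -1 and the exact 95% counting interval of the ratio excluded 1. This interval, in parentheses below, covers counting error only. Under this rule 6.78% of genes differed between ARPC4 ko and wt, 5.67% between Nrf2-EGFP and wt and 3.00% between ARPC4 ko and Nrf2-EGFP. Both comparisons with wt share that library, so a level peculiar to the wt culture and a change common to the other two cultures cannot be told apart. Where 3 levels are given without names they stand in the order wt, ARPC4 ko, Nrf2-EGFP. Levels in bulk RNA also cannot tell fewer cells of a kind from less RNA per cell.

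The targeted gene was measured first. Arpc4 (chromosome 6, 113378115 to 113390448 in mm10) had 94.2 CPM in wt, 61.0 CPM in ARPC4 ko and 98.4 CPM in Nrf2-EGFP, a difference of 1.54-fold (1.44 to 1.65) that did not pass the rule. Reads were counted over the whole gene, so the counts do not tell which part of it was transcribed. It was the lowest of the 10 Arp2/3 subunits by log2 fold, followed by Actr3 (-0.51), and the highest was the low-abundance paralog Actr3b (0.61). Keratinocyte markers were present in both libraries. Trp63, the epithelial master regulator, had 299 CPM in wt and 353 in ARPC4 ko, and the epithelial cadherin Cdh1 1078 and 962. The 12 keratinocyte markers summed to 28056, 17230 and 22633 CPM. Of these 12, 9 had log2 folds below 0 (median -0.34). The abundant Krt5 and Krt14 were the 2 lower by the rule. Markers of fibroblasts and immune cells were near 0, with sums in the same order of 2.85, 6.83 and 6.00 CPM for 16 fibroblast genes and 6.63, 8.14 and 5.84 for 16 immune genes. Of each of these lists 8 genes had no count in wt or ARPC4 ko. Sums were 3.47, 5.43 and 2.21 CPM for melanocyte markers and 27.7, 54.2 and 63.2 CPM for endothelial markers, nearly all of the latter from Flt1.

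Across all genes, 555 were higher in ARPC4 ko (4.71%) and 244 lower (2.07%). Most genes were close to their wt level, and 9763 (82.9%) lay within 1.5-fold of it. Genes that were higher were mostly rare in wt, with a median of 2.27 CPM, against 9.81 CPM for genes that were lower and 35.0 CPM for all genes. The higher genes summed to 5690 CPM in wt and 16285 in ARPC4 ko, whereas the lower genes summed to 37175 and 16129. The share past the rule was 22.2% for genes with a mean below 2 CPM, 16.4% from 2 to 10 CPM, 4.74% from 10 to 50, 1.81% from 50 to 200 and 2.26% from 200 to 1000. Of the 64 genes above 1000 CPM, 4 passed, all keratins and all lower.

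**Figure D1:**
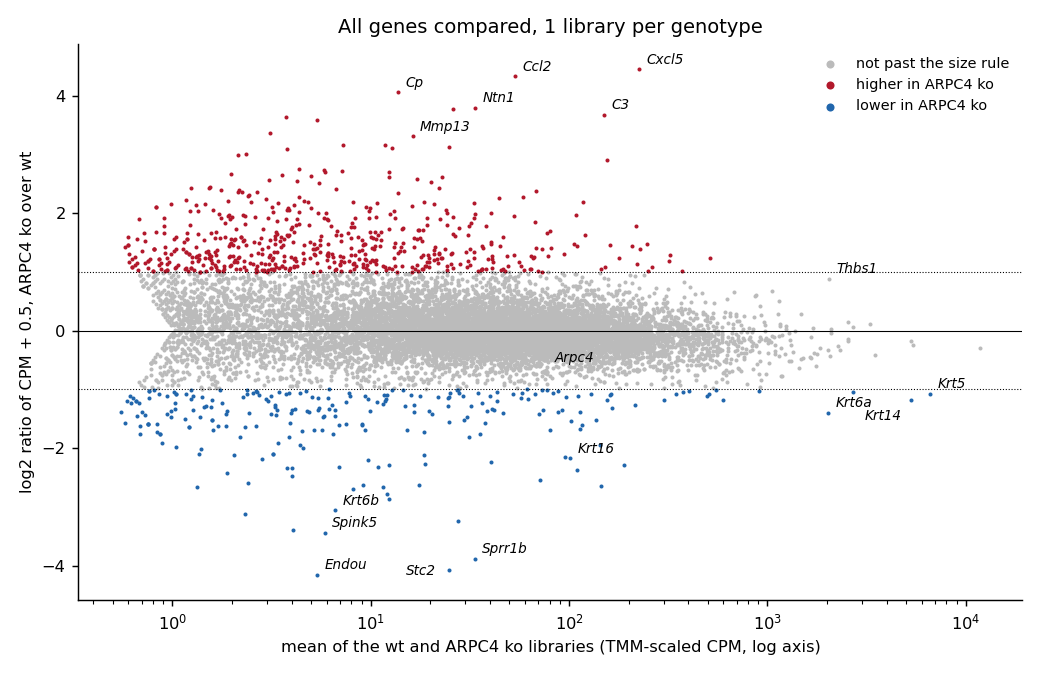
Each point is 1 of the 11777 genes, with the mean of the wt and ARPC4 ko levels on the x axis (CPM, log axis) and the log2 ratio of CPM + 0.5, ARPC4 ko over wt, on the y axis. Red marks the 555 genes higher and blue the 244 lower by the size rule, and the dotted lines are log2 ratios of 1 and -1. Genes past the rule lie mostly at the left, except Krt5, Krt14, Krt17 and Krt6a at the far right.

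In 5 lists of the actin machinery and its targets between 4.55% and 13.6% of measured members passed the rule, against 6.78% of all genes. Of 22 measured activators and regulators of Arp2/3, Wipf1, which stabilises N-WASP, was the 1 past the rule, with 3.29, 15.7 and 20.8 CPM. The N-WASP gene Wasl had 101, 109 and 93.5 CPM, and Cyfip1, a subunit of the WAVE complex that activates Arp2/3 in lamellipodia, 293, 213 and 242 CPM. Among 16 formins and other nucleators, which make unbranched filaments, Fhod3 was higher and none lower, and Diaph1 had 157, 136 and 148 CPM. Of 31 actin, myosin and SRF target genes Flnc was higher and Acta2 lower, and Acta2 and Fhod3, both below 10 CPM, did not pass with a pseudocount of 2 CPM. Cytoplasmic beta-actin Actb had 3154, 3398 and 4262 CPM and gamma-actin Actg1 1726, 1239 and 1745 CPM. Of 27 integrin and focal adhesion genes Itga7, Itga8 and Tns1 were higher, with Tns1, which links integrins to actin, at 5.603, 34.7 and 44.3 CPM. Of 22 YAP and TEAD targets Ankrd1 and Tead2 were higher and F3, the coagulation starter tissue factor, lower at 133, 51.7 and 93.5 CPM. Counts of 1 to 3 members such as these changed by 1 or 2 under several of the alternatives.

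For genes driven by Nrf2 the share past the rule was near that of all genes. Nfe2l2, which encodes Nrf2, had 225, 179.5 and 166 CPM, and Keap1, the adaptor that marks it for destruction, 60.5, 62.2 and 66.9 CPM. Of 39 measured antioxidant and NADPH targets 2 were higher and 1 lower (7.69% past the rule, against 6.78% of all genes; median -0.19), and with a filter of 10 CPM none was higher. The lower one was Nqo1, a quinone reductase widely used as a readout of Nrf2, with 24.5, 11.1 and 12.9 CPM. Those higher were Aldh3a1, with a rise from 4 counts to 60, and Gstm1, with 3.16, 7.61 and 3.38 CPM. Other classical targets did not pass, among them Hmox1 (43.1, 36.9 and 55.6 CPM), Txnrd1 (313, 262 and 364 CPM) and the cystine transporter gene Slc7a11 (112, 107 and 119.8 CPM).

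Chemokines and colony-stimulating factors, the secreted proteins that recruit and expand leukocytes, had the largest median of the 61 gene lists under the main filter. With a filter of 10 CPM the complement list, with 4 members left, had a larger one (2.77 against 2.44). Of 35 genes, 14 had no count in either library and 16 passed the filter on low levels. Of these 16, 10 were higher and none lower (62.5% past the rule, against 6.78% of all genes). Their median log2 fold was 1.92, against -0.01 over all 11777 genes. Without the filter on low counts the list median was 0.93 over 21 genes. Members below the filter in both libraries do not enter the counts of 16 and 10, and a member seen only where it was high had to differ. Cxcl5, which attracts neutrophils, had 19.3 CPM in wt, 431.6 CPM in ARPC4 ko and 278.4 CPM in Nrf2-EGFP. Its ratio of ARPC4 ko to wt was 22.4 (20.3 to 24.7). Ccl2, which attracts monocytes, had 4.58, 101.9 and 28.3 CPM in the same order. Cxcl1 had 36.4, 276 and 125 CPM, and Csf1, the macrophage growth factor, 41.8, 192 and 207 CPM. Both were high in ARPC4 ko and Nrf2-EGFP. Cxcl2 differed from these in having a low level in Nrf2-EGFP, with 4.71 CPM in wt, 45.2 CPM in ARPC4 ko and 5.23 CPM in Nrf2-EGFP, and so did the membrane-anchored chemokine Cx3cl1 with 2.94, 21.8 and 4.67 CPM. In contrast Cxcl14, a constitutive skin chemokine, had 30.3, 31.5 and 25.2 CPM, and the lowest member was Ccl27a, a keratinocyte chemokine for skin-homing T cells, at a log2 fold of -0.65.

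Cxcl5, Cxcl3, Cxcl1 and Cxcl2 lie close together on chromosome 5 between 90759360 and 90905938 (mm10), and all 4 genes measured in that interval were higher. The ends of the interval were set by these higher genes, and genes below the filter were not counted. The promoters of these 4 genes were read because they moved together. The 150 bases before the start are shown for the 3 that held a match to a kappaB-type motif, the DNA element bound by NF-kB, and no entry was matched for Cxcl5. Sequences are from RefSeq on GRCm38.p6, written 5′ to 3′ on the gene's strand, with matches to GGGNNTTTCC on either strand in capitals.
Cxcl1, chr5:90891095-90891244, plus strand: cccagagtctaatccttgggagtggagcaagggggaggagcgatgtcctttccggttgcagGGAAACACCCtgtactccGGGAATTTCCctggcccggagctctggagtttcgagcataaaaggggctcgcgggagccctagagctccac
Cxcl2, chr5:90903749-90903898, plus strand: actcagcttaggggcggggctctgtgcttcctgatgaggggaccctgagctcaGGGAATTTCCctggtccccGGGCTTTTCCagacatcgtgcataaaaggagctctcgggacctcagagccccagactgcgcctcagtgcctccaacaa
Cxcl3, chr5:90785951-90786100, plus strand: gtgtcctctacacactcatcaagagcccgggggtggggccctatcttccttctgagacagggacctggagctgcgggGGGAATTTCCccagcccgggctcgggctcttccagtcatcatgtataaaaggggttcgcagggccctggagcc
The nearest match in each began 71 (Cxcl1), 78 (Cxcl2) and 73 (Cxcl3) bases before the start. Over windows from 250 bases before to 50 after the start, 4 of the 7 higher chemokine genes with an entry held a match (Csf1, Cxcl1, Cxcl2 and Cxcl3), as did 1 of 5 members that did not pass (Ccl20). The share was 2.04% over the 9215 genes compared that had an entry, 4.81% over those of them that were higher and 3.75% over those that were lower. A match is a description of letters and not evidence of binding.

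NF-kB subunits and feedback genes include both the transcription factors and the inhibitors they induce. Of 25 measured members 6 were higher and none lower (24% past the rule, against 6.78% of all genes, median 0.55). They were Tnip3, Nfkbie, Tnfaip3, Ikbke, Tnfaip2 and Birc3, none of which is a subunit of NF-kB. Tnfaip3, which encodes the inhibitor A20, had 37.0 CPM in wt, 99.1 CPM in ARPC4 ko and 71.1 CPM in Nrf2-EGFP. Tnip3 rose from 2 counts to 102. The subunits Nfkb2 and Relb had 1.61-fold and 1.56-fold more in ARPC4 ko and the inhibitor Nfkbia had 52.3, 104.8 and 66.0 CPM, with a log2 fold just short of the rule. Of 23 measured innate sensors and inflammasome genes 3 were higher and none lower (median 0.23), or 1 higher with a pseudocount of 2 CPM. Those higher included the sensors Nod2 and Tlr2, which detect bacterial wall components, with Nod2 at 19.3, 53.5 and 35.98 CPM. The leukocyte adhesion receptor Icam1 was also higher, at 24.1, 66.1 and 29.1 CPM. Among interleukins, alarmins and tumour necrosis factor ligands 5 of 17 were higher and 4 lower (52.9% past the rule). With scaling by total counts 8 were higher, and with a filter of 10 CPM 1 was lower. Tnf had 13.6, 52.8 and 33.4 CPM and Il1a 244, 494 and 432 CPM. Il23a, a subunit of the psoriasis-linked cytokine interleukin 23, had 4.67, 13.8 and 12.03 CPM. Il12b, the gene of its other subunit, had 0 counts in wt, ARPC4 ko and Nrf2-EGFP. The lower members were Il1rn, the interleukin 1 receptor antagonist, at 16.2, 3.13 and 3.90 CPM, and Il1f5, Il33 and Tslp. The p38 kinase genes Mapk11, Mapk12 and Mapk13, whose products carry cytokine and stress signals, were higher by ratios of 2.50, 3.75 and 2.53. A list of psoriasis-associated genes, largely made of the same cytokines, had 10 of 25 measured members higher and 3 lower (52.0% past the rule). The lower ones were Il1rn, Il1f5 and Tslp, of which 1 remained with a filter of 10 CPM. Nos2, the inducible nitric oxide synthase, was among the higher ones, with 0.13, 4.57 and 1.29 CPM. The measured members did not include the stress keratins Krt6a, Krt6b, Krt16 and Krt17, all 4 of which were lower. S100a8 and S100a9 were below the filter, with 14 and 8 counts in wt and 3 and 4 in ARPC4 ko.

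Interferon-stimulated genes are the antiviral program that cells switch on through STAT and IRF factors. Of 39 measured members 23 were higher and none lower (59.0% past the rule, against 6.78% of all genes). All 39 log2 folds were above 0 (median 1.16, or 0.88 over 54 genes without the filter on low counts). Most of those higher were below 10 CPM: with a filter of 10 CPM, 7 of 20 were higher, and with a pseudocount of 2 CPM, 12 of 39. Ifitm3, a membrane protein that blocks virus entry, was an abundant member, with 97.1 CPM in wt, 336 CPM in ARPC4 ko and 279 CPM in Nrf2-EGFP, a ratio of 3.46 (3.30 to 3.63). Helz2 had 45.9, 111 and 71.4 CPM. In other members the Nrf2-EGFP level was close to wt. Usp18, the deubiquitylase that limits interferon signalling, had 1.29, 6.21 and 1.69 CPM, Irgm2 1.69, 5.39 and 1.65 CPM and Oas1a 0.22, 2.71 and 0.44 CPM. Of 29 measured STAT, IRF, JAK and SOCS genes 5 were higher and none lower (17.2% past the rule, median 0.14). Among the higher ones were Irf7, Irf9 and Irf1, at ratios of 2.55, 2.20 and 2.03. With a pseudocount of 2 CPM none of the 29 passed. Values of the Oas1, Ifit and guanylate-binding families are uncertain, because counting can lose or split the reads of near-identical copies.

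The promoters of 3 higher interferon-stimulated genes are shown with matches to TTTCNNTTTC, the core of the interferon response element, in capitals, as the 150 bases before the start from the same source.
Isg15, chr4:156200819-156200968, minus strand: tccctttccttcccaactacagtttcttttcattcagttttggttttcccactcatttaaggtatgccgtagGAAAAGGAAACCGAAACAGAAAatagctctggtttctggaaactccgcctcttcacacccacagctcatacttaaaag
Ifit1, chr19:34640739-34640888, plus strand: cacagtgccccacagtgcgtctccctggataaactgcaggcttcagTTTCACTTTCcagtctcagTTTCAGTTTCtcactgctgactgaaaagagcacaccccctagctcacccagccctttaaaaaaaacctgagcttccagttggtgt
Oas1a, chr5:120907526-120907675, minus strand: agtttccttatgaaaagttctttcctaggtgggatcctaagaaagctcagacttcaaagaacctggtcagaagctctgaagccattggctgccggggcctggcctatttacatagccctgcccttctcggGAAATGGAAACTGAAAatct
Isg15 held 3 overlapping matches, Oas1a 2 overlapping ones and Ifit1 2 separate ones; those of Isg15 and Oas1a lay on the minus strand relative to the gene. In the 300-base windows, 13 of 18 higher members with an entry held a match, and so did 7 of 14 members that did not pass. The share was 3.49% over the genes compared, 9.38% over those higher and 1.88% over those lower. The list was written from known interferon targets, so that its promoters hold this element is background and not a result of the comparison.

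MHC class I shows peptides from inside the cell to T cells. Of 26 measured genes of this antigen presentation 11 were higher and 1 lower (46.2% past the rule, against 6.78% of all genes, median 0.82). With a filter of 10 CPM 6 of 16 were higher. Tapbp, which loads peptides, had 112 CPM in wt, 305 CPM in ARPC4 ko and 239 CPM in Nrf2-EGFP. B2m, the invariant light chain, had 94.9, 196 and 142 CPM, and the peptide transporter gene Tap2 5.78, 16.5 and 9.58 CPM. The classical heavy chains H2-K1 (105, 196 and 131 CPM) and H2-D1 (84.8, 142 and 98.3 CPM) did not pass. Levels of H2 genes are uncertain because near-identical copies share reads. Psmb8, a subunit of the immunoproteasome, had a ratio of 5.81 (3.99 to 8.72) and the proteasome activator Psme1 2.45 (2.21 to 2.71). In the list of all proteasome subunits 3 of 41 measured members were higher and none lower (7.32% past the rule, near the 6.78% of all genes). They were Psmb8, Psmb9 and Psme1, and the list median was -0.21. With a filter of 10 CPM only Psme1 was higher. Mill1, a distant class I relative, had 1.07, 13.5 and 2.58 CPM, and the member that was lower, H60c, a ligand of an activating receptor of T and natural killer cells in skin, 112, 53.5 and 101 CPM. H60c was no longer lower with scaling by total counts.

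Complement and acute-phase lists held members with large differences, mostly higher. Of 22 measured acute-phase and antimicrobial genes 7 were higher and 2 lower (40.9% past the rule, against 6.78% of all genes, median 0.26). With a filter of 10 CPM 4 of 14 were higher and 0 lower. The list summed to 1487 CPM in wt and 1442 CPM in ARPC4 ko. C3, the central complement protein, had 21.4 CPM in wt, 280 CPM in ARPC4 ko and 142 CPM in Nrf2-EGFP, a ratio of 13.1 (11.9 to 14.4). C1s1 and C1ra, the proteases of the classical pathway, rose from 9 to 251 and from 8 to 95 counts. Clu, a secreted chaperone and complement inhibitor, had 21.3, 84.1 and 66.7 CPM. Of 34 complement genes only 8 passed the filter, and 4 of these were higher and 1 lower (62.5% past the rule). The lower one did not pass with scaling by total counts. Cp, the ferroxidase ceruloplasmin, had 1.11, 26.4 and 1.01 CPM. Slpi and Ptges, an antiprotease and the inducible prostaglandin E synthase, were higher by 3.60-fold and 3.66-fold, and Lcn2, with 0 and 40 counts, by at least 12.3-fold against the limit of 3 counts that a count of 0 allows. The lower members were Orm1, an acute-phase plasma protein, with 3.07, 0.66 and 1.01 CPM, and the defensin gene Defb1, with 4.22, 1.03 and 1.13 CPM.

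**Figure D2:**
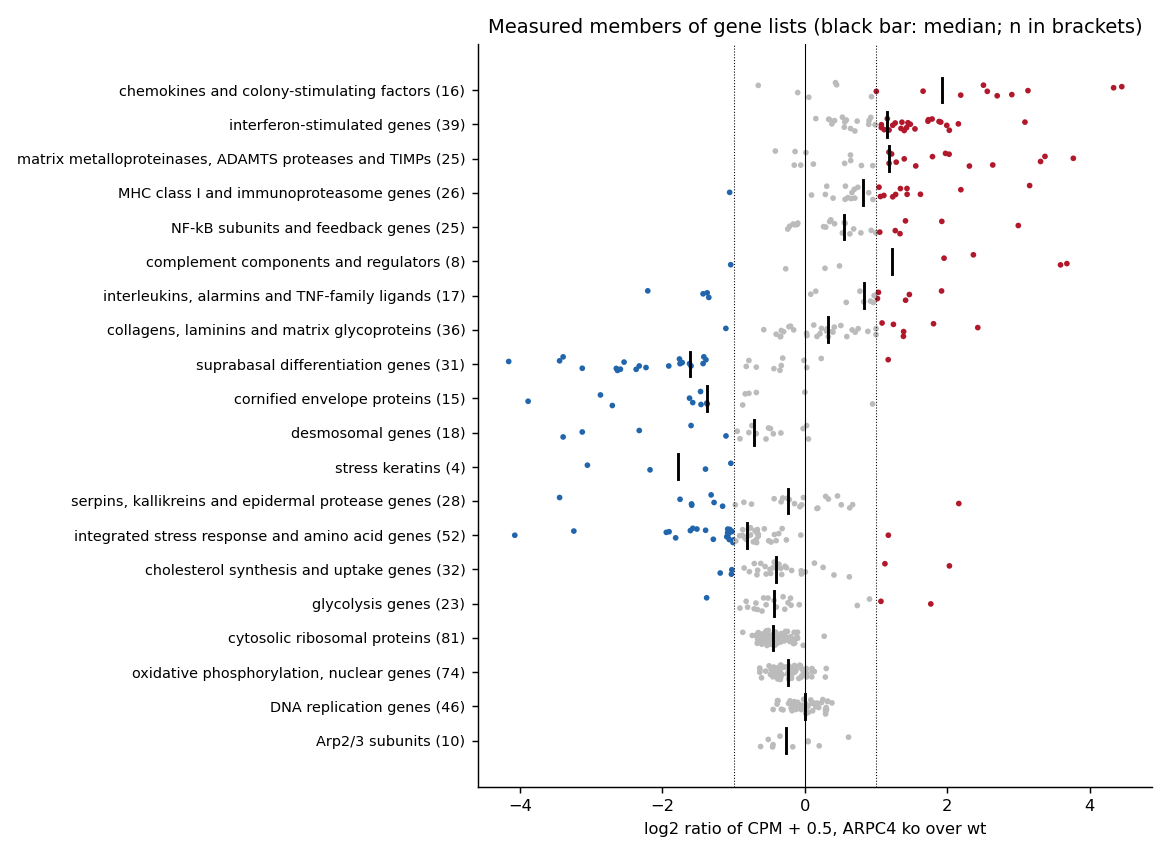
Each point is a measured member of a gene list, with the log2 ratio of CPM + 0.5, ARPC4 ko over wt, on the x axis. Red members were higher and blue lower by the size rule, grey members passed neither way, and black bars are list medians. Chemokine, interferon and matrix protease members lie to the right (medians 1.92, 1.16 and 1.18), and differentiation members and stress keratins to the left (-1.62 and -1.78). Without the filter on low counts the first 4 of these medians were 0.93, 0.88, 0.61 and -0.82. The 81 ribosomal protein genes lie in a narrow band around -0.45.

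Matrix-degrading proteases and their inhibitors had 14 of 25 measured members higher and none lower (56.0% past the rule, against 6.78% of all genes). The median was 1.18, or 0.61 over 37 genes without the filter on low counts. With a filter of 10 CPM the count was 6 of 15. Mmp13, a collagenase, had 2.58 CPM in wt, 29.99 CPM in ARPC4 ko and 9.90 CPM in Nrf2-EGFP. Mmp3, Mmp12 and Mmp10 lie beside it on chromosome 9, and with Birc3 they made 5 higher genes of 8 measured between 7272514 and 7873186. Adamts8 had 3.11, 48.7 and 48.3 CPM, level in ARPC4 ko and Nrf2-EGFP. Abundant members were Plau, the urokinase that activates plasminogen, at 195, 442 and 397 CPM, and the inhibitor Timp2 at 187, 455 and 401 CPM. Timp3 did not follow, with 58.2, 55.8 and 27.1 CPM. Among collagens, laminins and matrix glycoproteins 6 of 36 were higher and 1 lower (19.4% past the rule). The lower one did not pass with a filter of 10 CPM. Col8a1 had 126, 329 and 362 CPM, and Lama4 rose from 1 count to 59. Fibroblasts also make such genes, and the summed fibroblast markers given above were at 2.85 CPM in wt and 6.83 CPM in ARPC4 ko, whose part in these differences was not tested.

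Growth factor and guidance lists held both higher and lower members. Past the rule were 41.2% of measured angiogenic genes, 16.3% of guidance genes and 36.4% of FGF, PDGF, HGF and IGF family genes. The share was 18.2% for TGF-beta genes and 23.8% for MAPK feedback genes, against 6.78% of all genes. Of 17 measured angiogenic genes 6 were higher and 1 lower, the lower one not with a filter of 10 CPM. Vegfc, which drives lymphatic vessel growth, had 2.27, 23.4 and 34.7 CPM, and Ccbe1, which is needed to process it, 4.18, 23.3 and 54.4 CPM. Of 43 guidance genes 6 were higher and 1 lower, and 2 were higher with a filter of 10 CPM or with a pseudocount of 2 CPM. The axon guidance ligand Ntn1 had 4.09, 63.3 and 42.3 CPM, and the lower member Sema5a 28.7, 10.9 and 24.95 CPM. Of 22 FGF, PDGF, HGF and IGF family genes 5 were higher and 3 lower, or 1 lower with a filter of 10 CPM. Igfbp3, which binds insulin-like growth factors, had 131, 365 and 505 CPM, and the lower ones were Fgfbp1, Fgf21 and Igfbp2. Of the TGF-beta superfamily and its modulators 5 of 33 were higher and 1 lower, and 3 of 20 were higher with a filter of 10 CPM. Fst, which encodes the activin inhibitor follistatin, had 306, 721 and 730 CPM, and Ltbp1, which tethers latent TGF-beta to matrix, 85.8, 237 and 288 CPM. The lower one was Bmp7, with 55.8, 21.3 and 48.5 CPM. Fgfbp1, a secreted carrier of fibroblast growth factors, and Wnt4 were lower by 2.42-fold and 2.28-fold. Of 39 measured Wnt ligands, receptors and pathway genes 2 were higher and 2 lower (10.3% past the rule, median 0.10). With a filter of 10 CPM 1 of 28 was higher and 1 lower. MAPK feedback genes, which report signalling through ERK, had 5 of 21 higher and none lower, or 2 higher with a pseudocount of 2 CPM. Dusp6, an ERK phosphatase, had 40.3, 106 and 94.5 CPM. No member of 21 Notch pathway genes or of 16 EGF family ligands and ERBB receptors passed, though 2 Notch genes did with scaling by total counts.

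**Figure D3:**
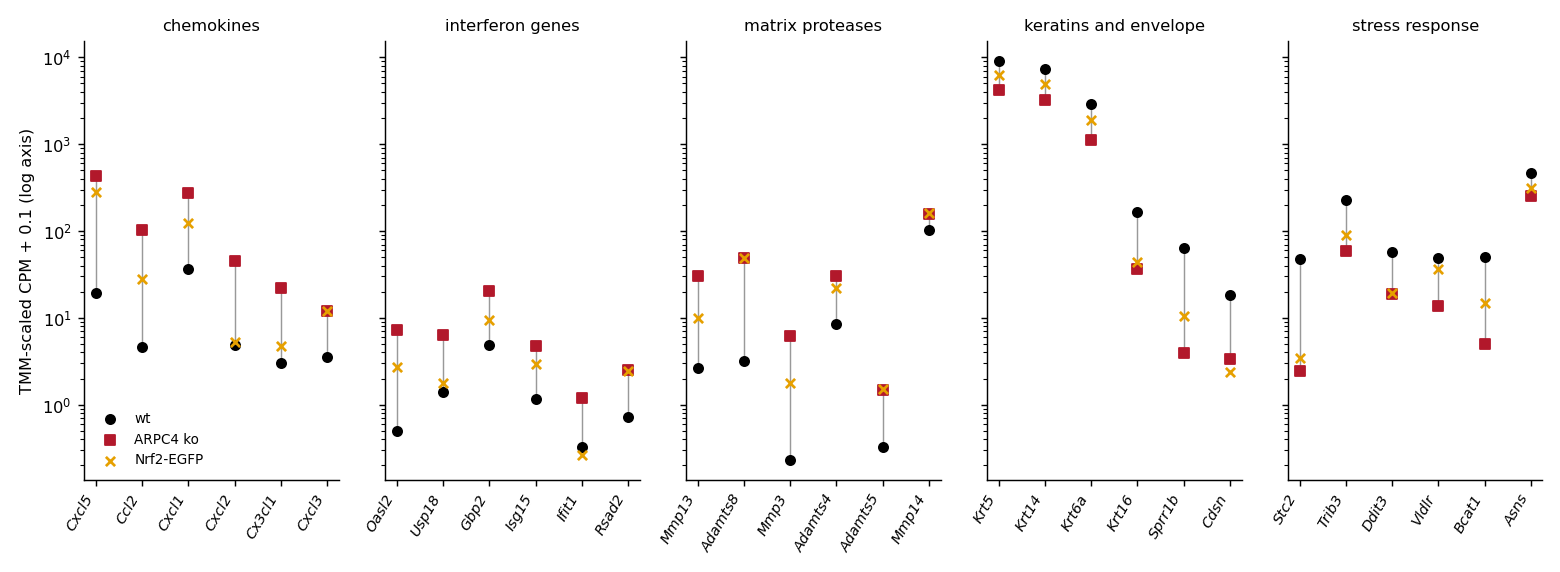
Levels of 30 genes from 5 groups in the 3 libraries (CPM + 0.1, log axis), 1 library per genotype. The grey line joins wt (black circle) and ARPC4 ko (red square), and the cross is Nrf2-EGFP. In the chemokine panel the cross lies near wt for Cxcl2 and Cx3cl1 and near ARPC4 ko for Cxcl3, and in the keratin panel Krt5, Krt14 and Krt6a lie in the order wt, Nrf2-EGFP, ARPC4 ko.

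Most suprabasal differentiation genes measured were lower. Of 49 genes 31 were measured, and 20 of these were lower and 1 higher (67.7% past the rule, against 6.78% of all genes). The median log2 fold was -1.62, or -0.82 over 45 genes without the filter on low counts. With a filter of 10 CPM 10 of 19 were lower, and with a pseudocount of 2 CPM 13 of 31. Lgals7, a keratinocyte galectin, had 250 CPM in wt, 39.4 CPM in ARPC4 ko and 93.9 CPM in Nrf2-EGFP. Abca12, which loads barrier lipids into lamellar bodies, had 184, 35.1 and 60.1 CPM, and Ly6d 122.9, 20.7 and 40.1 CPM. Endou fell from 239 counts to 3. The exception was Tgm1, a crosslinking enzyme of the envelope, with 11.7, 26.8 and 15.6 CPM. Padi3, which converts arginine to citrulline in envelope proteins, had 173, 53.8 and 177 CPM, so that wt and Nrf2-EGFP were alike in level. Spink5, the protease inhibitor whose loss breaks the skin barrier in Netherton syndrome, had 11.2, 0.58 and 0.52 CPM. Of 38 measured fatty acid and skin barrier lipid genes 3 were lower and 1 higher (10.5% past the rule, median -0.17). Among barrier lipid genes, Fabp5 and Cers3 were lower by 4.51-fold and 2.70-fold. On chromosome 3 between 92285417 and 93015687 all 9 genes measured were lower, which were 5 Sprr2 genes or pseudogenes, Sprr1b, Sprr1a, Ivl and Crct1. Sprr1b had 63.4, 3.83 and 10.5 CPM, a difference of 16.6-fold (13.4 to 20.7). Counts of the Sprr2 genes are uncertain, as near-identical copies share reads.

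Keratins and desmosomes, which give epidermis its mechanical strength, were also lower in part. All 12 measured keratin genes, those named Krt and a number, had log2 folds below 0. Of them 7 were lower by the rule (58.3%, against 2.07% of all genes). Krt5 had 8997 CPM in wt, 4260 CPM in ARPC4 ko and 6248 CPM in Nrf2-EGFP, and its partner Krt14 7378, 3249 and 4932 CPM. Krt6a had 2930, 1113 and 1877 CPM and Krt16 166, 36.4 and 43.5 CPM. Krt6a and Krt6b are near-identical, which makes their split uncertain. The simple epithelial keratins Krt8 and Krt18 did not pass, and Krt18 had 188 CPM in both libraries. With scaling by total counts Krt5 and Krt17 no longer passed the rule, while Krt14, Krt6a, Krt6b and Krt16 did. Of 18 desmosomal genes 5 were lower (27.8%) and none higher, or 2 of 15 lower with a filter of 10 CPM. The 5 were the cadherins Dsg1a, Dsg1b, Dsc1 and Dsg3 and the adhesion protein Cdsn. The 4 cadherin genes are the measured genes of 1 interval on chromosome 18, and Dsg3 had 681, 316 and 416 CPM. The plaque proteins Dsp (2606, 2062 and 2054 CPM) and Jup (1077, 756 and 966 CPM) did not pass.

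Of 50 measured transcription factors of the epidermis 8 were lower and 3 higher (22% past the rule, against 6.78% of all genes, median -0.15). The lower ones included Tfap2c, Cebpa, Zfp750, Maf, Grhl1, Dlx3 and Klf2. Grhl1 and Zfp750 are known to promote terminal differentiation. Zfp750 had 16.5 CPM in wt, 6.66 CPM in ARPC4 ko and 1.37 CPM in Nrf2-EGFP. Those higher were Pitx1, a hindlimb homeobox gene, with 0.62, 6.50 and 13.1 CPM, Gata6, and Tfap2b, with 16, 127 and 0 counts. With a filter of 10 CPM 5 of 37 were lower and none higher. Hox genes record position along the body, and 14.3% of 21 measured ones passed the rule. Hoxa11 and Hoxb3 were higher and Hoxc13, a hair and nail gene, lower. All were at low levels and none passed the rule with a filter of 10 CPM.

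Genes of the integrated stress response, in which ATF4 drives amino acid supply and transfer RNA charging, lay below wt in nearly every case. Of 52 measured members 20 were lower and 1 was higher (40.4% past the rule, against 6.78% of all genes). Log2 folds were below 0 for 51 of them (median -0.81). With scaling by total counts 10 were lower. Stc2, a secreted stress glycoprotein, had 47.4 CPM in wt, 2.34 CPM in ARPC4 ko and 3.34 CPM in Nrf2-EGFP, and Bcat1, which transfers amino groups from branched-chain amino acids, 50.2, 4.85 and 14.8 CPM. Trib3, an inhibitor induced by ATF4, had 228, 58.9 and 90.3 CPM. Abundant members were the serine synthesis gene Psat1 at 688, 324 and 480 CPM and the asparaginyl and leucyl transfer RNA synthetases Nars (736, 365 and 467 CPM) and Lars (473, 223 and 276 CPM). Atf4 itself had 702, 358 and 468 CPM, a difference of 1.96-fold (1.91 to 2.01) just short of the rule. Slc38a1, a glutamine transporter, was the exception, with 25.2, 57.3 and 37.1 CPM. Chaperones of the endoplasmic reticulum, a neighbouring stress program, had no member of 35 past the rule (median -0.30). Of 41 integrated stress response genes with a promoter entry, 5 of 16 lower ones and 10 of 25 others held a match to TGATGNAA, the core of the ATF4 site, in the 300-base windows, against 2.64% over the genes compared, 12.5% over all those lower and 3.61% over all those higher. The list was written from known ATF4 targets, so matches in it are background, as for the interferon list.

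Lists of metabolism and growth differed in the share of members past the rule, which was 6.78% over all genes. Of 81 measured cytosolic ribosomal protein genes none passed, yet 80 had log2 folds below 0, with a median of -0.45. They summed to 33129 CPM in wt, 24165 CPM in ARPC4 ko and 27612 CPM in Nrf2-EGFP. With scaling by total counts the median was -0.34. Nuclear genes of oxidative phosphorylation had none of 74 past the rule and a median of -0.23. Glycolysis genes had 2 of 23 higher and 1 lower (13.04% past the rule, median -0.43). The lactate dehydrogenase gene Ldhb was higher, with 1.56, 6.50 and 0.64 CPM, and Ldha, at 1037, 551 and 540 CPM, did not pass. In the cholesterol pathway 5 of 32 genes passed (15.6%). The synthesis enzymes Idi1, Lss and Hmgcs1 were lower, and the exporters Abcg1 and Abca1 higher. With scaling by total counts 1 of the 3 enzymes remained lower. Abcg1 had 4.85, 21.3 and 19.6 CPM. Both proliferation lists stayed within the rule, with none of 46 DNA replication genes past it (median 0.00) and none of 39 mitosis genes (median -0.20).

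Of the 799 genes past the rule, 532 (66.6%) were in none of the 61 lists. Families were therefore also formed from the letters that begin each symbol, and 68 of 127 families with at least 10 measured genes had no member past the rule. In 9 families at least 20% of members passed. Besides Mmp, Krt, Il and Irf these were Mapk, Sema, Cyp, Psmb and Aldh, the last with 2 higher and 3 lower of 14. Aldh2, the mitochondrial enzyme that clears acetaldehyde, had 13.2 CPM in wt, 54.0 CPM in ARPC4 ko and 12.3 CPM in Nrf2-EGFP. Outside the lists Dbn1, an actin-binding protein, had 21.6, 115 and 114 CPM, and the neighbouring membrane protein genes Tmem176b and Tmem176a had ratios of 4.96 and 3.95. The lower genes outside the lists included Fam129a (Niban), at 313, 63.9 and 74.1 CPM, and the water and glycerol channel Aqp3, at 122, 37.7 and 44.6 CPM.

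To find where ARPC4 ko stood apart from both other libraries, genes with at least 10 CPM were also ranked by the smaller of 2 log2 folds, ARPC4 ko over wt and ARPC4 ko over Nrf2-EGFP, both of which use the ARPC4 ko library. The ranking picked these genes for their levels, which are given as a description only. Cp, Cxcl2, Cpt1c, Osr1 and Mill1 led those high in ARPC4 ko. Cpt1c, a carnitine palmitoyltransferase relative, had 1.51, 12.8 and 0.97 CPM. Gpc4, a cell-surface heparan sulphate proteoglycan, had 37.0, 118 and 39.2 CPM. Evc, a component of the cilium base that acts in Hedgehog signalling, had 6.40, 30.8 and 7.45 CPM, and its partner Evc2 12.5, 31.9 and 13.3 CPM. Among those low in ARPC4 ko were Prune2 (55.3, 16.04 and 53.4 CPM), the tubulin gene Tubb3 (152, 52.1 and 132 CPM), the RNA-binding protein gene Igf2bp1 (45.4, 16.002 and 52.8 CPM) and Serpinb2, a keratinocyte serpin (237, 94.7 and 217 CPM).

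**Figure D4:**
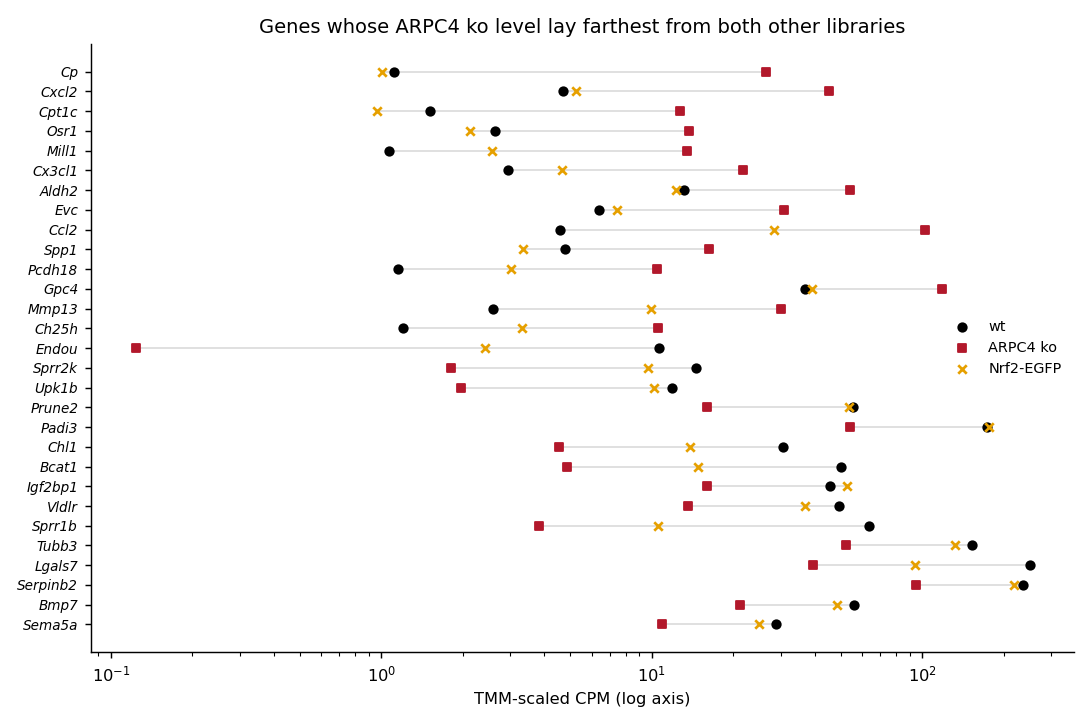
Levels (CPM, log axis) of 14 of the 15 genes highest and the 15 lowest in ARPC4 ko relative to both other libraries, ranked from top to bottom within each set, with 1 library per genotype. The red squares of Cp, Cxcl2 and Aldh2 lie to the right of nearly coincident wt and Nrf2-EGFP symbols, and those of Padi3, Prune2 and Serpinb2 lie to the left.

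Differences were also unevenly spread over the genome. For the 9247 genes reaching 10 CPM in wt or ARPC4 ko, the median log2 fold was 0.25 on chromosome 17, where 372 of 442 genes (84.2%) were above 0, and 0.18 on chromosome 5, where 494 of 633 (78.0%) were. It was -0.24 on chromosome 7, where 126 of 631 genes were above 0, and -0.22 on both chromosome 1 and chromosome 3. Of all 586 genes compared on chromosome 17, 50 were higher and 1 lower (8.53% and 0.17%). Of 871 on chromosome 7, 25 were higher and 27 lower (2.87% and 3.10%). Over all genes compared the shares were 4.71% higher and 2.07% lower. In bins of 15 Mb with at least 20 genes, every one of 6 bins on chromosome 17 had a median above 0 (0.18 to 0.28) and all 9 on chromosome 5 did (0.13 to 0.23). None of 10 bins on chromosome 7 (-0.33 to -0.17) or 11 on chromosome 1 (-0.31 to -0.09) did. As ratios the chromosome medians ranged from 0.846 to 1.19, which is smaller than the size rule.

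Properties of the genes that could move with the log2 fold were measured beside this pattern. Over all chromosomes the median log2 fold was -0.12 in the 20% of genes with the lowest transcript GC content and 0.07 in the 20% with the highest. By wt level it was 0.16 in the lowest 20% and -0.14 in the highest. Median GC content was 52.7% on chromosomes 17 and 7. In each of 5 equal classes of GC content, exon length or wt level, the median was above 0 on chromosome 17 and below 0 on chromosome 7. These values are a description, and the cause of the chromosome shifts was not tested. Between Nrf2-EGFP and wt the medians were 0.18 on chromosome 17, 0.19 on chromosome 5, -0.16 on chromosome 7 and -0.31 on chromosome 3, and between ARPC4 ko and Nrf2-EGFP they were 0.07, -0.01, -0.10 and 0.09. These comparisons share libraries, so which culture departs cannot be told apart. With each gene's log2 fold taken relative to the median of its chromosome, an alternative chosen after the data were seen, 557 genes were higher and 214 lower. The MHC class I list, whose H2 genes lie on chromosome 17, then had 8 members higher and none lower in place of 11 and 1.

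**Figure D5:**
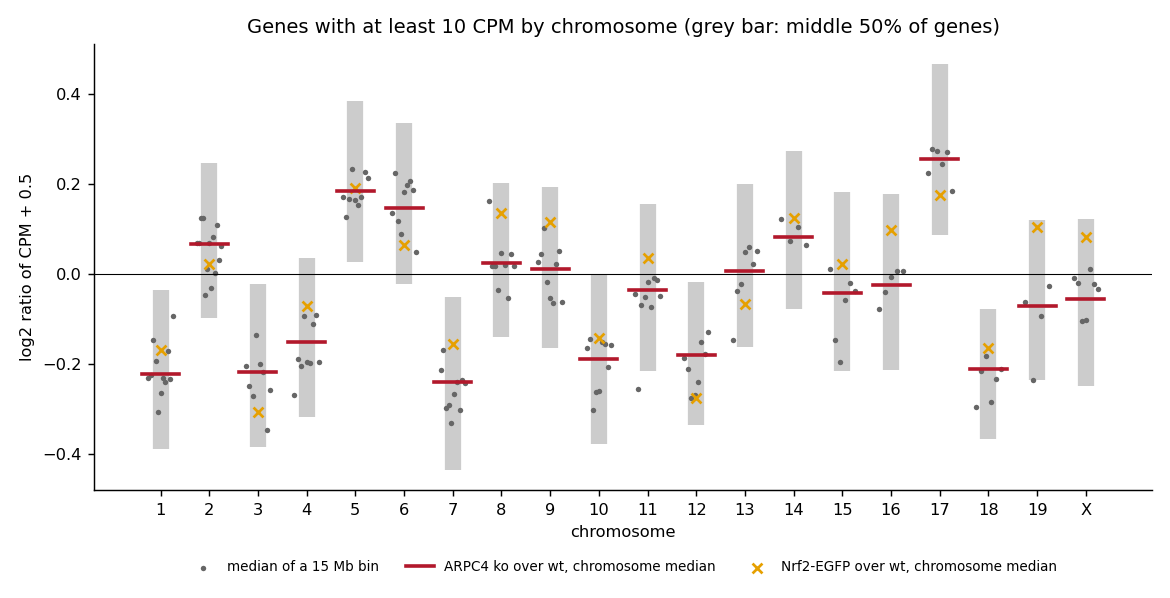
Log2 ratios of CPM + 0.5 for genes with at least 10 CPM, by chromosome. Red lines are medians of ARPC4 ko over wt, grey bars the middle 50% of genes, grey points medians of 15 Mb bins in order along the chromosome, and crosses medians of Nrf2-EGFP over wt. All bins of chromosomes 5 and 17 lie above 0 and all bins of chromosomes 1, 3, 7 and 18 below 0.

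Genes past the rule in 1 direction were also joined into runs where neighbours started within 500 kb of each other. The ends of each run were set by its own genes past the rule, and genes below the filter were not counted. Of 18 runs with at least 4 genes, 15 were higher and 3 lower, and 5 of those higher were on chromosome 17. The lower runs were the Sprr and involucrin genes, the desmosomal cadherins, and an interval on chromosome 15 between 101676023 and 102163469 in which 5 of 10 measured genes were lower, the type II keratins Krt6b, Krt6a, Krt5 and Krt1 and the sterol acyltransferase gene Soat2. Besides the Cxcl and Mmp runs, 6 of 6 genes measured on chromosome 19 between 34290666 and 34650009 were higher, among them the death receptor gene Fas, Ch25h, Lipa, Ifit2 and Ifit1. In the MHC region of chromosome 17, 5 of 8 genes measured from 35199381 to 35443773 were higher, which were Tnf and 4 H2-Q genes. A run from 33524204 to 34216321 held 8 higher genes of 34, including Angptl4, Tapbp, Psmb8, Psmb9 and Tap2.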

How the data were processed

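The deposited files, made by the authors, give raw read counts for 41214 gene identifiers in each library, without normalisation. Per the labels' protocols, stranded mRNA libraries were read as 65 bp single ends. The submitters' processing notes name mm10 as the build and, as tools, HTSeq, Bowtie 1.1 and TopHat2 2.1.0. Neither they nor the labels state the strand setting of the counting, so overlapping antisense genes may share reads. Totals outside genes (8.22% to 9.08% of entries) were left out. Symbols, coordinates and exon lengths came from GENCODE M21 on GRCm38 and matched 40254 identifiers. TMM factors from edgeR 4.0.16 in R 4.3.3 (0.981 for wt, 1.06 for ARPC4 ko, 0.966 for Nrf2-EGFP) scaled the libraries. Intervals are exact Clopper-Pearson intervals conditional on a gene's sum (SciPy 1.17.1, Python 3.11.15). They cover counting error only, because each genotype had 1 library. Reads lacked molecular identifiers, a further limit that the intervals do not include. Folds and ratios have no pseudocount, unlike log2 folds. The size rule and the interval were run on simulated counts that held counting error only, with changes set in genes of at least 10 CPM. Scaling, lists, chromosomes and promoters were not checked in this way.

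The comparison and the 61 gene lists were chosen with earlier results of these data known. Named genes were the 15 highest and 15 lowest with at least 10 CPM, the 10 and 10 with at least 100 CPM, the 8 largest rises and falls in CPM, up to 8 members of each list and its most abundant member, and the Arp2/3 subunits, Nfe2l2 and Nqo1. Others, such as the p38 kinases and genes in runs, were named after their values were seen. Alternatives changed the scaling, the filter and the pseudocount. A few genes are not reported here.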

Additional observations from a re-analysis of the deposited data

How the results depend on the processing

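No paired analysis was possible because each genotype had 1 library. The counts of genes past the rule stayed within 1.5 times 555 higher and 244 lower, except that they fell to 245 and 121 with a filter of 10 CPM and to 311 and 143 with a pseudocount of 2 CPM. Scaling by total gene counts gave 680 and 198 and moved the median log2 fold of all genes from -0.01 to 0.09, and 77.4% of the genes past the rule were then higher, in place of 69.5%. Without the filter on low counts the chemokine median fell from 1.92 to 0.93, that of matrix proteases from 1.18 to 0.61 and that of complement from 1.22 to 0.11. Those of suprabasal genes and cornified envelope proteins went from -1.62 to -0.82 and from -1.38 to -0.44. List medians at least 0.1 from 0 kept their sign under these alternatives apart from 2. The median of the glutathione S-transferases was 0.13, and -0.10 with a filter of 10 CPM. The median of the S100 genes was -0.20, and 0.0061 relative to chromosome medians, an alternative added after the data were seen. The cause of these changes was not tested. Of the genes named by rank or from a list, 66 no longer passed the rule with a pseudocount of 2 CPM and 418 kept their result. With scaling by total gene counts 9 no longer passed, 19 passed newly and 456 kept their result. Genes named in other ways were not part of this check. Without a second library per genotype the difference between any 2 cultures of the same genotype is unknown, and genes under 2 CPM rest on few counts.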
